A study of Mus musculus with 8 samples.

Results

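The data described here are the steady-state transcriptome of regulatory T (Treg) cells of the large intestine in the genotype that the study used as its wild type (WT). They come from 2 RNA-seq libraries among the 8 samples of the series, WT replicate 1 and WT replicate 2, and from all 19191 gene rows of the count table. The study profiled lamina propria Treg cells of C57BL/6 mice with and without the aryl hydrocarbon receptor gene Ahr, by RNA-seq and by chromatin accessibility. The WT mice were Ahrf/+ Foxp3Yfp-Cre: Cre recombinase made from the Foxp3 locus, beside a yellow fluorescent protein, deletes the floxed Ahr allele, so WT Treg cells keep 1 working copy. The KO mice were Ahrf/- Foxp3Yfp-Cre, and their 2 RNA-seq libraries are used here only to see whether a gap between replicates 1 and 2 recurs there. The genotypes are not compared. Age, sex and the number of mice are not given in the labels, nor do the labels say that replicates came from separate mice, so the spread between them may be technical. The cells were sorted by flow cytometry, and the gate used for the RNA samples is not given in the labels.

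Treg cells are CD4 T cells that restrain immune responses. They depend on the transcription factor Foxp3, on the interleukin-2 receptor and on the inhibitory receptor Ctla4. In the large intestine, many Treg cells are induced locally by antigens of the microbiota, carry the factor c-Maf (Maf), and release interleukin-10. Others carry Gata3 and the interleukin-33 receptor ST2 (Il1rl1), and are known for tissue repair.

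Each level is given as CPM, the count of a gene row divided by the total count of its library and multiplied by 1000000, with replicate 1 first and replicate 2 second. Ranks run from 1, the row with the highest mean CPM of both libraries, and describe shares of reads. A long transcript yields more reads than a short one at the same number of molecules, and no transcript lengths were used here, so an order between genes is an order of read shares and not of molecules. Rows with a mean of at least 1 CPM are called expressed.

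The start regions of 3 transcripts that anchor the account are shown from RefSeq (GRCm38.p6), each with 250 bases before the annotated start and 50 after it. They are Foxp3, which defines the lineage and whose locus makes the Cre, Ctla4, which had the highest rank of the 4 Treg markers, and Junb, an early response gene that ranked above it. Capitals mark the motif TATAAA, searched on both strands. Of all 32851 start windows in the table, 13.6% hold it on either strand.

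Foxp3, chrX:7579426-7579725, plus strand: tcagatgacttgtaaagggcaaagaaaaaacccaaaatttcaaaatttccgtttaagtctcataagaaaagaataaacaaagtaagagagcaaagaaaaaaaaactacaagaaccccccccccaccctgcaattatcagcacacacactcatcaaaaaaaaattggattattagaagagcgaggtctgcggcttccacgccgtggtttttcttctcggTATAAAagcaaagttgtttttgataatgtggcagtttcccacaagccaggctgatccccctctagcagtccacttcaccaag

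Ctla4, chr1:60908775-60909074, plus strand: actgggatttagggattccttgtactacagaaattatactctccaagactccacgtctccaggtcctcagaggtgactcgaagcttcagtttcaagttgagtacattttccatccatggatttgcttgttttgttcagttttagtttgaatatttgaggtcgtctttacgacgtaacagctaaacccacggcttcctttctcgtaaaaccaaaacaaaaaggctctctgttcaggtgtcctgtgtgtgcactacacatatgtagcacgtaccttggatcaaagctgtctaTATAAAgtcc

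Junb, chr8:84978699-84978998, minus strand: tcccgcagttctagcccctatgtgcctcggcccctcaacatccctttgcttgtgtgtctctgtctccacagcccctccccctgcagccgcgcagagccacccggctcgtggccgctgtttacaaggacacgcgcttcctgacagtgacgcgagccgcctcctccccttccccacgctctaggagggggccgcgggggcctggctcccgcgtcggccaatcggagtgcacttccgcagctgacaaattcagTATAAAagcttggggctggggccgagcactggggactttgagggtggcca

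The motif begins 32 bases before the annotated start in the Foxp3 window, at the start itself in the Junb window and 40 bases after the start in the Ctla4 window. A further annotated Foxp3 start has no match in its window. The Junb window holds 21 CpG dinucleotides, the Foxp3 window 6 and the Ctla4 window 8, beside a median of 7 over all windows. A match of letters is a description and shows no binding.

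The libraries held 26862922 and 62402450 counts, so 3 counts, the upper limit that a count of 0 allows, equal 0.112 and 0.0481 CPM. Of the 19191 rows, 12267 (63.9%) were expressed, 2320 reached 100 CPM and 96 reached 1000 CPM. The lowest expressed row stood at 1.00007 CPM and the highest row below the limit at 0.999327 CPM. The 1000 highest rows (5.21% of all) held 54.6% and 54.5% of counts, and the mean at rank 1000 was 213 CPM. The 63.9% and 5.21% are the shares beside which all counts of list members below are to be read. The lists were chosen with earlier results of these data known, so a high share may in part reflect that choice. The median over all rows was 6.18 CPM. Over the 12264 expressed rows with counts in both libraries, log2 CPM correlated at a Pearson r of 0.983 and a Spearman rho of 0.990 across genes, which are not independent replicates. The median absolute log2 ratio between libraries was 0.17 among expressed rows and 0.13 among rows of at least 100 CPM.

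**Figure D1:**
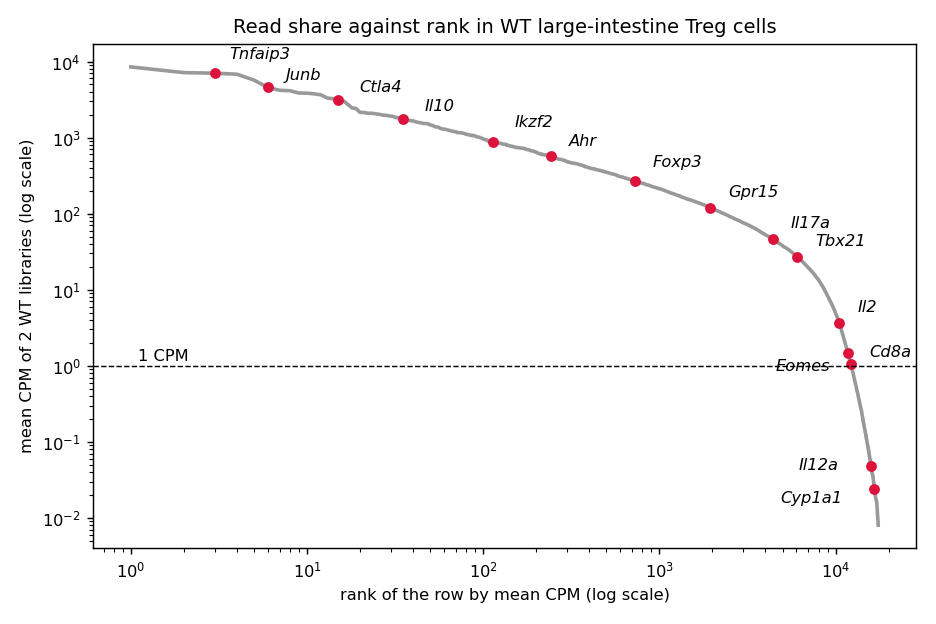
Mean CPM of the 2 WT libraries (vertical, log scale) against the rank of each row (horizontal, log scale), as a grey line with named genes as points and a dashed line at 1 CPM. Ctla4 (rank 15), Il10 (rank 35) and Ikzf2 (rank 114) sit on the upper slope, Foxp3 at rank 727, and Il12a and Cyp1a1 far below 1 CPM.

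The highest rows combined genes that most cells use with genes of activated lymphocytes. Apart from Lars2, whose rank rested on 1 library and is described at the end, the first rows were Actb (β-actin) at 6961 and 7346 CPM, Tnfaip3 at 7042 and 7014 CPM and the scaffold gene Ahnak at 6784 and 6857 CPM. Eef1a1, which brings transfer RNA to the ribosome, followed at 6214 and 5199.6 CPM. Of the 25 highest rows by mean, Jak2, a kinase of cytokine receptors, stood at 2334 and 1853 CPM and Hspa5, the chaperone of the endoplasmic reticulum, at 2470.1 and 2346 CPM. Myh9, a non-muscle myosin, stood at 2165 and 1987 CPM and Btg1, which holds back proliferation, at 2335 and 1957 CPM. The tops of both libraries were alike, with 22 of the 25 highest rows of each in common and 933 of the 1000 highest.

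All of the Treg markers were high. Ctla4, the receptor that removes B7 ligands from antigen-presenting cells, stood at 3195 and 3107 CPM (rank 15; chromosome 1, 60965869 to 60972676, plus strand, mm9). Il10, the anti-inflammatory cytokine, stood at 1759 and 1806 CPM (rank 35; chromosome 1, 132916422 to 132921551, plus strand). Ikzf2, which encodes Helios, stood at 919 and 836 CPM (rank 114; chromosome 1, 69577788 to 69732534, minus strand). Each of these 3 differed between libraries by a small part of its level, with means of 3151 ± 62.1 CPM for Ctla4, 1782 ± 32.7 CPM for Il10 and 878 ± 59.0 CPM for Ikzf2 (SD, n = 2). Foxp3 itself stood at 279 and 257 CPM (rank 727; chromosome X, 7156802 to 7172369, plus strand), a mean of 268 ± 16.0 CPM. The span of Foxp3 overlaps Ccdc22 (27.1 and 30.1 CPM), so reads in the overlap could have been counted to either gene. The coreceptor Cd4 stood at 1043 and 1112 CPM, Cd3e of the T cell receptor complex at 118 and 88.9 CPM, and Il2ra, the α-chain of the interleukin-2 receptor, at 333 and 259.7 CPM. Both libraries therefore carried the transcripts that the label Treg calls for. Messenger RNA does not show whether every sorted cell carried them.

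Most transcripts that define other cell types were present at lower levels, with Igj of plasma cells (122 and 254 CPM) as an exception that lay above Cd3e in both libraries. Cd8a stood at 0.968 and 1.14 CPM and Cd8b1 at 4.54 and 4.97 CPM, for CD8 T cells. The B cell markers Ms4a1 and Cd79a stood at 2.64 and 3.14 CPM and 2.27 and 2.66 CPM. Of the epithelial markers, Epcam stood at 14.7 and 14.8 CPM, while Vil1 stood at 1.71 and 1.65 CPM and Cdh1 at 0.261 and 0.641 CPM. Epcam is also carried by some leukocytes. By list, 11 of 12 B cell markers were expressed with a sum of 33.8 and 33.7 CPM, 5 of 20 epithelial markers with 42.0 and 40.7 CPM, and 11 of 18 CD8, γδ T and NK cell markers with 41.2 and 46.1 CPM. Mast cell and basophil markers were expressed in 2 of 7 cases (27.2 and 27.6 CPM), red cell and platelet markers in 6 of 11 (32.5 and 57.6 CPM) and markers of enteric glia and neurons in 1 of 11 (4.73 and 4.39 CPM). Of these lists, only the B cell list had an expressed share above the 63.9% of all rows. The share of CD8, γδ T and NK cell markers was close to it, and the remaining shares were lower. Innate lymphoid markers were expressed in 12 of 15 cases (80.0%), above the 63.9% of all rows. However, Id2, Il1rl1, Areg, Il7r and Gata3, which head that list, are also Treg genes. The NK cell receptor gene Ncr1 had 0 and 4 counts, and Mpo of neutrophils 3 and 27 counts. The macrophage, dendritic cell, plasma cell, stromal and endothelial markers differed between the libraries and are described at the end. Their expressed shares were, in that order, 81.2%, 50.0%, 87.5%, 87.5% and 66.7%. All but the dendritic cell share lay above the 63.9% of all rows. In bulk samples, fewer cells of a type and less RNA per cell cannot be told apart.

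**Figure D2:**
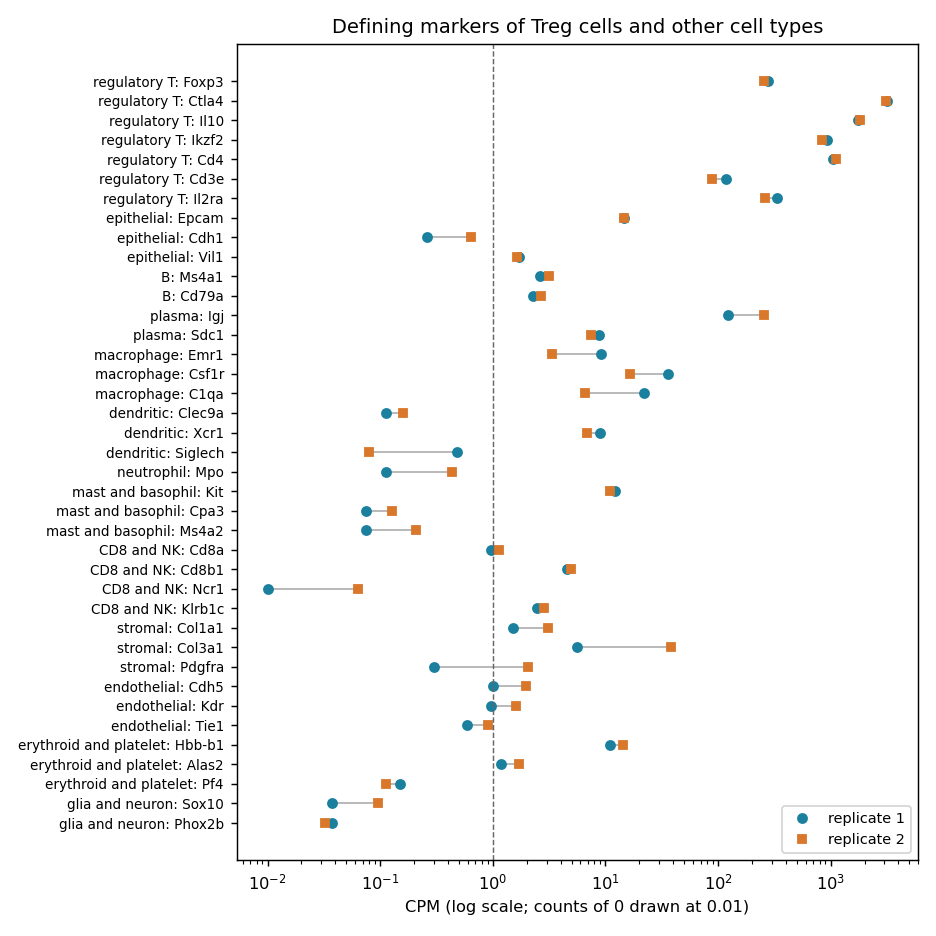
CPM of defining markers in each WT library (log scale), with circles for replicate 1, squares for replicate 2, a grey line between them and a dashed line at 1 CPM. The Treg markers apart from Cd3e (118 and 88.9) lie at or above Foxp3 and Il2ra, while macrophage markers lie higher in replicate 1 and Igj and Col3a1 higher in replicate 2.

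Every measured member of the list of Treg lineage and effector regulators was expressed, 43 of 43 against 63.9% of all rows, and 23 were among the 1000 highest rows against 5.21% of all. The median of the list was 229.7 CPM. Ets1, a factor needed for stable Foxp3 expression, stood at 3064 and 3102 CPM (rank 16), above every other member. Hif1a, the oxygen-sensing factor, stood at 1853 and 1935 CPM (rank 31). Rora stood at 1855 and 1285 CPM (rank 44). It is the retinoid-related orphan receptor shared with innate lymphoid and Th17 cells. Maf, required for interleukin-10 in Treg cells of the colon, stood at 1296 and 1181 CPM (rank 65). Gata3, of the repair-associated Treg cells, stood at 262 and 164 CPM (rank 998). Transcripts tied to both colonic programs were thus present in the same bulk samples, which do not tell whether single cells held both.

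Signal-dependent regulators followed. Stat3 stood at 1145 and 903 CPM, Stat5b at 567 and 508 CPM and Stat5a at 429 and 352 CPM. Stat5 proteins carry the interleukin-2 signal and Stat3 that of interleukins 6, 10 and 23. The annotated spans of Stat3 and Stat5a overlap. Id2, an inhibitor of E proteins, stood at 1039 and 968 CPM, whereas Id3 stood at 17.9 and 22.9 CPM. Nfkb1 stood at 1082 and 794 CPM, Rel at 313 and 291 CPM and Rela at 191 and 163 CPM, the subunits of NF-κB. Nr4a1, induced by antigen receptor signals, stood at 811 and 674 CPM, Nr4a3 at 404 and 292 CPM and Nr4a2 at 121 and 90.1 CPM. Irf4 and Prdm1, which mark effector Treg cells, stood at 508 and 547 CPM and 199 and 216 CPM. Among Ikaros family members, the order of read shares was Ikzf2, then Ikzf3 (489 and 447 CPM), Ikzf1 (348 and 367 CPM) and Ikzf4 (66.8 and 44.9 CPM), with no overlap of the library values between neighbours. Bach2 (26.7 and 22.3 CPM) and Vdr (9.38 and 11.9 CPM) were among the lowest members. In the order of the list, 30 of 42 neighbouring pairs had library values that overlapped, so most neighbours were not resolved by these libraries.

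Ahr, the ligand-activated factor whose loss the study examined, stood at 581 and 549.7 CPM (rank 241) with 1 working copy per cell by genotype. The deleted allele can still give transcript that is counted, so this level cannot be assigned to the intact copy alone. Its partner Arnt stood at 91.5 and 64.5 CPM and Arnt2 at 52.9 and 50.8 CPM. The transcripts that Ahr is known to induce spanned the whole range. Tiparp, an ADP-ribosyltransferase, stood at 403 and 361 CPM (rank 432). Ahrr, the Ahr repressor, stood at 7.30 and 6.68 CPM (rank 9351). Cyp1a1, the cytochrome P450 most often used as an Ahr readout, had 0 and 3 counts, within the limit of 3 counts, and Cyp1b1 stood at 0.0745 and 0.112 CPM. Nqo1 stood at 0.893 and 1.44 CPM. Of the 23 Nrf2 and Ahr induced enzymes and their regulators, 18 (78.3%) were expressed, beside 63.9% of all rows. Of these 23, 1 (4.35%) was among the 1000 highest rows, beside 5.21% of all rows, and the median was 34.8 CPM. Among the redox genes, Prdx1 stood at 135 and 163 CPM, Txnrd1 at 123 and 109 CPM and Sod1 at 100 and 88.4 CPM, while Hmox1 stood at 10.6 and 8.72 CPM.

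Regulators of other T cell fates were lower than the Treg list, with a median of 64.6 CPM. Of 17, 15 (88.2%) were expressed and 2 (11.8%) were among the 1000 highest rows. All of these lay above the values of all rows, 6.18 CPM, 63.9% and 5.21%. Stat4, the signal carrier of interleukin-12, stood at 429.7 and 309 CPM, and Stat6, that of interleukin-4, at 293 and 289.7 CPM. Bcl6, the follicular helper factor, stood at 153 and 96.8 CPM. Tcf7 stood at 116 and 114 CPM, Lef1 at 67.0 and 62.2 CPM and Klf2 at 133 and 101 CPM, which are genes of naive and recirculating T cells. Zbtb7b (ThPOK, of the CD4 lineage) stood at 86.2 and 109 CPM. T-bet (Tbx21), the Th1 factor, stood at 23.0 and 31.3 CPM (rank 6072). Eomes of cytotoxic cells stood at 1.71 and 1.25 CPM, Zbtb16 (PLZF, of innate-like T cells) at 0.521 and 0.321 CPM and Ascl2 at 0.335 and 0.208 CPM, near or under the limit for expressed rows. By lineage, 13 of 14 Th17 genes, 11 of 12 Th1 genes, 11 of 11 Th2 genes and 10 of 11 follicular helper genes were expressed. The share over all rows was 63.9%. The highest members of these lists were shared with Treg cells, namely Rora and Maf, Stat4 and Il18r1, Il1rl1 and Ccr4, and Pdcd1 and Tnfsf8.

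**Figure D3:**
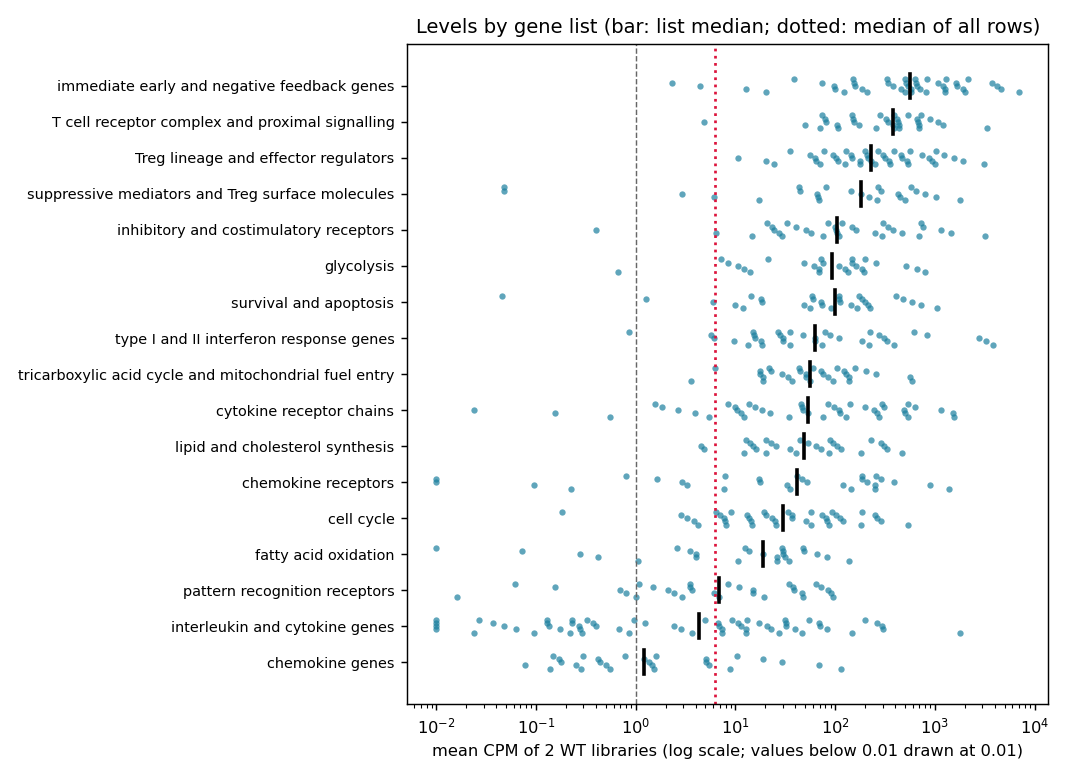
Mean CPM of the 2 WT libraries (log scale) for the members of 17 gene lists, 1 point per gene, with a bar at the median of each list, a dotted line at the median of all rows (6.18 CPM) and a dashed line at 1 CPM. List medians run from 559 CPM for immediate early and negative feedback genes to 1.22 CPM for chemokine genes.

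Of the listed genes of the T cell receptor complex and its proximal signalling, 33 of 33 were expressed. Of them, 21 were among the 1000 highest rows, and the median was 381 CPM. The list holds no gene of the receptor's own α- and β-chains. Ptprc, the phosphatase CD45 that sets the threshold of receptor signalling, stood at 3119 and 3522 CPM (rank 13). The complex itself was represented by Cd3g at 409.9 and 468 CPM, Cd247 at 316 and 331 CPM, Cd3d at 264 and 303 CPM and Cd3e at 118 and 88.9 CPM. The kinases followed at 404 and 477 CPM for Lck, 380.4 and 382 CPM for Fyn and 336 and 343 CPM for Zap70. Lck and Zap70 start the signal. The adaptors Lat (420.3 and 431 CPM) and Lcp2 (405 and 439 CPM) and the phospholipase Plcg1 (388 and 398 CPM) lay close together in read share. Sla, which lowers receptor levels, stood at 1195 and 1246 CPM, and its span overlaps Tg. Cd7 was the lowest member, at 3.95 and 5.64 CPM.

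Costimulatory and inhibitory receptors were expressed in 32 of 33 cases, 12 of them among the 1000 highest rows. After Ctla4, the highest was Tnfrsf1b, the tumour necrosis factor receptor 2 that supports Treg expansion, at 1542 and 1334 CPM (rank 52). Icos stood at 1235 and 1089.7 CPM and Cd28 at 876 and 930.2 CPM. The other members of the tumour necrosis factor receptor family were led by Tnfrsf9 (4-1BB) at 901 and 626 CPM, Tnfrsf4 (OX40) at 726 and 673 CPM and Tnfrsf18 (GITR) at 473 and 461 CPM. All 3 are known as receptors of activated Treg cells. Tnfrsf1a, the other tumour necrosis factor receptor, stood at 24.1 ± 1.27 CPM (SD, n = 2). Of the inhibitory receptors, 4632428N05Rik, which encodes VISTA, stood at 362 and 404 CPM, Pdcd1 (PD-1) at 357 and 328 CPM and Havcr2 (TIM-3) at 168 and 125 CPM. Lag3 stood at 115 and 94.9 CPM, Btla at 101 and 96.9 CPM and Tigit at 101 and 68.0 CPM. The values of Lag3 and Btla overlapped between the libraries, so their order was not resolved. Klrg1, a receptor of terminally differentiated effector Treg cells, stood at 239 and 268 CPM. Cd244 was not expressed (0.484 and 0.321 CPM).

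Mediators of suppression and related surface molecules were expressed in 23 of 25 cases, with 12 among the 1000 highest rows and a median of 182 CPM. After Il10, Gzmb, a protease of cytotoxic granules, stood at 967 and 1075 CPM (rank 93). Its usual partner, the pore-forming protein Prf1, stood at 2.98 and 2.79 CPM, and Gzma at 7.97 and 4.15 CPM. The granzyme B transcript was thus high without matching levels of the other cytotoxic genes in the list. Nt5e (CD73), which makes adenosine from AMP, stood at 842 and 746 CPM, and Entpd1 (CD39), which supplies AMP from ATP, at 60.6 and 73.7 CPM. Fgl2, a secreted suppressive protein, stood at 467 and 526 CPM, and Lrrc32 (GARP), which displays latent TGF-β on the Treg surface, at 444 and 461 CPM. Activators of latent TGF-β were represented by Itgav at 654 and 639 CPM and Itgb8 at 89.3 and 71.4 CPM. Tgfb1 itself stood at 80.6 and 56.2 CPM. Nrp1, a surface protein of thymus-derived Treg cells, stood at 126 and 163 CPM. Interleukin-35 is built from the products of Ebi3 and Il12a. Ebi3 stood at 17.1 and 17.5 CPM, whereas Il12a had 0 and 6 counts. Ido1 also had 0 and 6 counts.

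Among 60 cytokine genes, 34 (56.7%) were expressed, beside 63.9% of all rows. The 4 members among the 1000 highest rows were 6.67% of the list, beside 5.21% of all rows. The list's median of 4.32 CPM was below that of all rows. Il10 alone held 47.4% and 50.1% of the counts of the list. Il16 stood at 302 and 307 CPM and its span overlaps Stard5 (196 and 207 CPM). Tnfsf8 (CD30 ligand) stood at 380.1 and 208 CPM and Areg, the growth factor amphiregulin made by tissue Treg cells, at 251 and 279 CPM. Ltb stood at 195 and 201 CPM, Tnfsf11 (RANK ligand) at 135 and 162 CPM and Tnf at 87.4 and 78.1 CPM. Of the effector T cell cytokines, Il17a stood at 49.7 and 42.5 CPM and Ifng at 25.8 and 37.1 CPM. Il22 stood at 7.30 and 6.52 CPM, Il21 at 7.15 and 7.64 CPM, Il4 at 6.22 and 12.4 CPM and Il13 at 3.72 and 6.23 CPM. Il17f (1.12 and 0.609 CPM) lay near the limit for expressed rows. Il2, which Foxp3 represses and Treg cells take from other cells, stood at 4.02 and 3.32 CPM (rank 10464). The Il17a, Ifng and Il4 transcripts could come from Treg cells or from other T cells in the sort, and their source was not tested.

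Chemokine genes were lower still, with 14 of 27 (51.9%) expressed, beside 63.9% of all rows. Of them, 0 were among the 1000 highest rows, and the median was 1.22 CPM. Cxcl10, an interferon-induced chemokine, stood at 125 and 106 CPM and Ccl20, the ligand of Ccr6, at 69.8 and 67.0 CPM. Cxcl2 followed at 37.0 and 21.3 CPM. Ccl5, a product of effector and memory T cells, stood at 4.50 and 5.70 CPM, and Ccl22 and Ccl17, products of dendritic cells, at 0.298 and 0 CPM and 0.0745 and 0.0801 CPM.

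**Figure D4:**
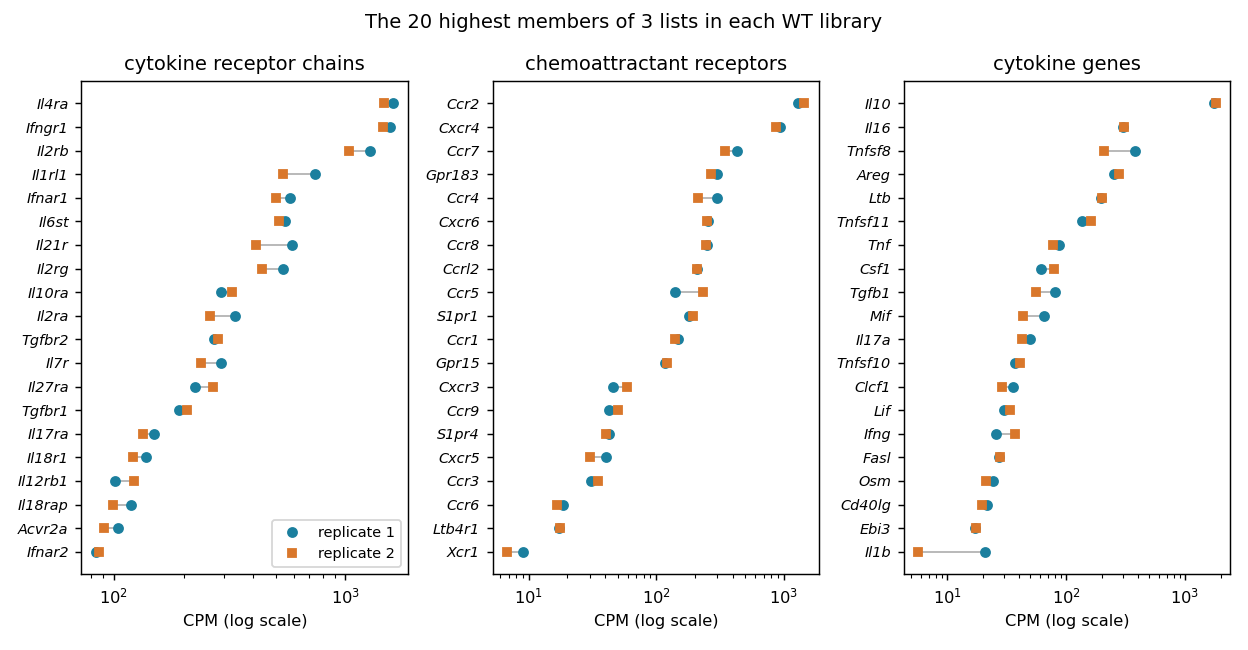
CPM in each WT library (log scale) of the 20 highest members of 3 lists, with circles for replicate 1 and squares for replicate 2. Il4ra, Ccr2 and Il10 head the cytokine receptors, the chemoattractant receptors and the cytokines, and Il1b shows the widest gap between libraries among the genes drawn.

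Cytokine receptor chains were expressed in 40 of 43 cases, with 13 among the 1000 highest rows. Il4ra, shared by the receptors of interleukins 4 and 13, stood at 1614 and 1478 CPM (rank 45). Ifngr1, the ligand-binding chain of the interferon-γ receptor, stood at 1564 and 1453 CPM, and Ifngr2 at 48.2 and 45.4 CPM. The order of Il4ra and Ifngr1 was not resolved, since their library values overlapped. All chains of the interleukin-2 receptor were present, with Il2rb at 1279 and 1038 CPM, Il2rg at 537 and 435 CPM and Il2ra at 333 and 259.7 CPM. The span of Il2rg overlaps the predicted gene Gm20489. Il1rl1, the receptor of the alarmin interleukin-33, stood at 739 and 537 CPM (rank 201). The receptors of other interleukin-1 family members were lower, with Il18r1 at 137 and 121 CPM and Il1r1 at 18.8 and 12.5 CPM, while the decoy receptor Il1r2 stood at 78.4 and 72.2 CPM. Il6st, the shared signalling chain gp130, stood at 549 and 519 CPM, and Il6ra, its interleukin-6 partner, at 31.8 and 37.6 CPM. Il23r stood at 27.8 and 17.1 CPM and Il12rb2 at 13.7 and 13.7 CPM, with their common chain Il12rb1 at 101 and 122 CPM. Il10ra stood at 290.4 and 323 CPM and Il10rb at 52.8 and 53.3 CPM, so both chains of the interleukin-10 receptor were transcribed. Il7r, a gene usually low in Treg cells of blood and lymph nodes, stood at 291 and 238 CPM. Il20ra was within the limit of 3 counts.

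Among 29 receptors for chemokines and related attractants, 24 were expressed and 7 were among the 1000 highest rows. Ccr2, best known for the exit of monocytes from bone marrow, stood at 1300.2 and 1457 CPM (rank 55), and Cxcr4 at 930.3 and 864 CPM (rank 110). Ccr7, which leads cells to lymph nodes, stood at 429.8 and 347 CPM. Gpr183, the receptor of oxysterols in lymphoid tissue, stood at 301 and 272 CPM, and it lies within the span of Ubac2 (54.8 and 61.4 CPM). Ccr4 stood at 299.9 and 215 CPM, Cxcr6 at 255 and 251 CPM and Ccr8 at 252 and 247 CPM, which are receptors of tissue Treg cells. The values of Cxcr6 and Ccr8 overlapped, and both lay within the range of Ccr4. Gpr15, the homing receptor of the large intestine, stood at 118 and 122 CPM (rank 1941). Ccr9, the homing receptor of the small intestine, stood at 42.5 and 49.9 CPM, and its span overlaps Lztfl1 (46.6 and 59.1 CPM). Ccr10 was not expressed (0.670 and 0.945 CPM), nor was Cxcr2 (0.112 and 0.0801 CPM), and Cxcr1 and S1pr5 were within the limit of 3 counts. S1pr5 had no count in either library.

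Adhesion and residence molecules were expressed in 25 of 27 cases and 9 were among the 1000 highest rows. The gut-homing integrin α4β7 was represented by Itgb7 at 662 and 804 CPM and Itga4 at 718 and 662 CPM. Itgae (CD103), which pairs with β7 to bind epithelial cadherin, stood at 202 and 161 CPM. Cd44 stood at 603 and 502 CPM and Cd69, which retains cells in tissue, at 523 and 484 CPM. S1pr1, which serves recirculation, stood at 180.1 and 195 CPM.

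Of 30 nuclear receptors and Ahr partners, 22 (73.3%) were expressed, beside 63.9% of all rows. After Rora, Nr3c1, the glucocorticoid receptor, stood at 1164 and 966 CPM (rank 86). Nr1d2 of the clock stood at 296 and 292 CPM, and its relative Nr1d1 at 44.7 and 40.5 CPM. Nr1h2 (LXRβ), a sensor of oxysterols, stood at 134 and 119.6 CPM, while Nr1h3 (LXRα), common in macrophages, was not expressed (0.521 and 0.994 CPM). The retinoic acid receptor Rara stood at 94.6 and 95.4 CPM, with Rarg at 30.0 and 32.7 CPM and Rarb at 2.90 and 3.14 CPM. Rara was thus the highest of the retinoic acid receptors in read share. Pparg stood at 4.02 and 4.86 CPM. The bile acid receptor Nr1h4 (FXR) stood at 0.335 and 0.801 CPM and the xenobiotic receptor Nr1i2 (PXR) at 0.112 and 0.144 CPM, and Ppara and Esr2 were within the limit of 3 counts.

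Of 47 receptors for metabolites, lipids, nucleotides and neurotransmitters, 29 (61.7%) were expressed, close to the 63.9% of all rows. The median of 6.25 CPM was close to that of all rows (6.18 CPM), and 5 were among the 1000 highest rows. P2ry10, a receptor of lysophospholipids, stood at 1148 and 1176 CPM (rank 74). The proton-sensing family was represented by Gpr132 at 809 and 727 CPM and Gpr65 at 246 and 227 CPM. Adora2a, the adenosine receptor that completes the CD39 and CD73 pathway, stood at 253 and 255 CPM. The other adenosine receptors were not expressed, with Adora2b at 0.856 and 0.801 CPM, Adora3 at 0.670 and 0.208 CPM and Adora1 at 0.261 and 0.337 CPM. P2rx7, which senses extracellular ATP, stood at 156 and 186 CPM. The prostaglandin E2 receptors Ptger4 and Ptger2 stood at 161 and 156 CPM and 86.3 and 86.9 CPM. Ramp3, a partner of the calcitonin receptor-like receptor, stood at 426 and 264 CPM and the receptor gene Calcrl at 47.0 and 49.3 CPM. The receptors of short-chain fatty acids, the microbial products known to expand colonic Treg cells, were low. Ffar2 (GPR43) stood at 3.05 and 2.69 CPM, Niacr1 (GPR109A) at 0.968 and 0.256 CPM, and Ffar3 (GPR41) had no count in either library. The bile acid receptor Gpbar1 (TGR5) stood at 2.01 and 1.99 CPM.

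Pattern recognition receptors were expressed in 26 of 31 cases with a median of 6.84 CPM, close to that of all rows, and 0 were among the 1000 highest rows. The highest were the cytosolic sensors Aim2 (88.2 and 102 CPM) and Ddx58 (RIG-I; 83.2 and 99.8 CPM), and the inhibitory protein Nlrc3 (77.6 and 91.3 CPM), whose library values all overlapped, so their order was not resolved. Tlr1 (43.5 and 49.8 CPM) led the Toll-like receptors. Tlr2 stood at 6.70 and 6.99 CPM and Tlr4 at 1.94 and 2.24 CPM, and Tlr5, the flagellin receptor, had 0 and 2 counts. Of the 26 expressed, 6 were over 2-fold apart between libraries, beside 2.88% of all expressed rows. Nlrp3 (6.48 and 0.881 CPM), Clec7a (5.25 and 1.81 CPM) and Cd14 (3.98 and 1.87 CPM) were among them. The others were Nlrc4 (2.23 and 0.737 CPM), Tlr9 (1.71 and 0.433 CPM) and Tlr13 (1.49 and 0.513 CPM). All were higher in replicate 1, the direction of most macrophage markers. With replicate 2 alone, 22 of the 31 were expressed.

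Of the metabolic lists, glycolysis had the highest median. Of the 26 glycolysis genes 25 were expressed, with a median of 92.4 CPM. Pkm2 (pyruvate kinase) stood at 773 and 815 CPM, Aldoa (aldolase) at 623 and 687 CPM and Ldha (lactate dehydrogenase) at 519 and 515 CPM, at ranks 137, 196 and 274. Of the glucose transporters, Slc2a3 stood at 176 and 223 CPM and Slc2a1 at 162 and 131 CPM. Gapdh, often used as a reference transcript, stood at 81.4 and 55.2 CPM. Of the hexokinases, Hk1 stood at 92.5 and 125 CPM and Hk2 at 75.7 and 76.3 CPM, and Hk3 was not expressed (1.08 and 0.240 CPM). All 31 genes of the tricarboxylic acid cycle and of fuel entry into mitochondria were expressed, with a median of 56.7 CPM. Got1, an aspartate aminotransferase, stood at 629 and 556 CPM. Glutamine carriers were represented by Slc38a2 at 427 and 443 CPM, Slc1a5 at 238 and 263 CPM and Slc38a1 at 197 and 176 CPM. Of the 31 genes of amino acid transport and mTOR signalling, 28 were expressed. Slc7a5, the leucine carrier, stood at 59.2 and 49.8 CPM, and its partner Slc3a2 at 586 and 492 CPM.

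Fatty acid oxidation was lower by the same measure, with 21 of 25 genes expressed, 0 among the 1000 highest rows and a median of 18.7 CPM. Hadha stood at 133 and 141 CPM and Cpt1a, the gate of long-chain fatty acids into mitochondria, at 76.3 and 56.7 CPM. Its muscle form Cpt1b stood at 2.79 and 2.44 CPM and the fatty acid carrier Cd36 at 2.46 and 5.51 CPM. Ppargc1a, the coactivator of mitochondrial biogenesis, stood at 0 and 0.144 CPM. All 28 genes of lipid and cholesterol synthesis were expressed and 5 were among the 1000 highest rows, with a median of 48.8 CPM. Acly, which makes acetyl-CoA for lipid synthesis, stood at 311 and 357 CPM and Cyp51 at 267 and 316 CPM. Insig1, a sterol-regulated protein that restrains cholesterol synthesis, stood at 296 and 327 CPM. Transcripts are not fluxes, and enzyme activity was not measured.

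Apart from the housekeeping list (median 1143 CPM), the list with the highest median was that of immediate early and negative feedback genes. All 44 were expressed, 30 were among the 1000 highest rows, the median was 559 CPM, and together they held 4.70% and 4.37% of all counts. Tnfaip3 (A20), which restrains NF-κB, stood at 7042 and 7014 CPM (rank 3), and Nfkbia, the NF-κB inhibitor, at 1538 and 1722 CPM. Of the AP-1 subunits, Junb stood at 4900.1 and 4232 CPM (rank 6), Fos at 1075 and 1320.2 CPM, Fosb at 825 and 825 CPM and Jun at 674 and 617 CPM. The heat shock genes Hspa1b and Hspa1a stood at 4554 and 3828 CPM and 4103 and 3414 CPM. These 2 genes are near-identical copies, so the split of reads between them is uncertain, and Hspa1a overlaps the predicted gene Gm20481. Hsp90aa1 stood at 1341 and 1177 CPM, Dnajb1 at 729 and 700.4 CPM and Hsph1 at 679.8 and 654 CPM. Dusp1, a phosphatase of MAP kinases, stood at 1660.0 and 1655 CPM and Rgs1, which dampens chemokine receptor signals, at 2071 and 1959.8 CPM. Egr1 (87.5 and 61.0 CPM), Egr2 (20.3 and 19.9 CPM) and Egr3 (4.28 and 4.65 CPM) were lower. Genes of this list are known to respond to handling and tissue dissociation as well as to antigen. No unhandled sample was measured, and the part of handling in these levels was not tested.

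Interferon response genes were expressed in 34 of 35 cases and 11 were among the 1000 highest rows. The class I antigen presentation genes came first, with H2-K1 at 3956 and 3757 CPM, B2m at 3244 and 3244 CPM and H2-D1 at 2887 and 2609 CPM. H2-K1 and H2-D1 are similar in sequence, so their split is uncertain. Irf1 stood at 556 and 668 CPM and Tap1 at 351 and 428 CPM, whereas Isg15 stood at 16.7 and 19.8 CPM, Mx1 at 13.9 and 17.8 CPM and Ifi44 at 0.782 and 0.945 CPM. The antiviral genes of the list thus lay far below Irf1 in read share.

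Survival genes were expressed in 29 of 30 cases. Gimap6, a GTPase of lymphocyte survival, stood at 1092 and 1014 CPM, Mcl1, the anti-apoptotic protein on which Treg cells depend, at 731 and 713 CPM, and Birc3 at 632 and 556 CPM. Bcl2l1 (Bcl-xL) stood at 231 and 214 CPM and Bcl2 at 88.7 and 94.5 CPM. The opposing gene Bcl2l11 (Bim) stood at 78.0 and 65.3 CPM, and Hrk was within the limit of 3 counts. The Bcl2a1 genes are near-identical copies and are not separated here.

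Cell cycle genes were expressed in 39 of 40 cases with a median of 29.8 CPM, and 33 of them were higher in replicate 2, with a median log2 ratio of 0.42. Over all expressed rows the median log2 ratio was 0.03. Cdkn1b (p27), an inhibitor of entry into the cycle, stood at 513 and 564 CPM. Mki67, the proliferation marker, stood at 234 and 348 CPM and Top2a at 142 and 232 CPM, both higher in replicate 2. Mcm6 stood at 255 and 277 CPM and Pcna at 244 and 254 CPM, which were close in both libraries. Genes of mitosis were lower, with Cdk1 at 10.5 and 15.7 CPM, Ccnb1 at 3.76 and 9.15 CPM and Plk1 at 2.20 and 4.34 CPM, and each was again higher in replicate 2.

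A row was called not detected where it held at most 3 counts in both libraries, as 3107 rows (16.2%) did, of which 1257 had no count in either. Some of these rows belong to genes with well-known roles in the gut or in other T cells. Il9 had 1 and 1 counts and Il23a, the subunit specific to interleukin-23, 3 and 1. Il12b had 2 and 0, and Il24 and Il31 had none. Il19, Il20 and Il17d had at most 3. Of the epithelial markers, the goblet cell gene Tff3, the stem cell gene Lgr5 and Krt20, Car4 and Aqp8 had at most 3 counts in each library. The granulocyte genes Elane and Siglec5 and the mast cell genes Mcpt2 and Fcer1a had no count. Of the 9 neutrophil and eosinophil markers found, 0 were expressed, with a sum of 1.49 and 1.46 CPM. A count of 0 allowed up to 0.112 CPM in replicate 1 and 0.0481 CPM in replicate 2, which covers counting error only, and a row with 1 to 3 counts could lie higher.

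The libraries agreed less well for a small set of genes. Among expressed rows, 353 (2.88%) were over 2-fold apart, 214 higher in replicate 2 and 139 higher in replicate 1. Among the 8632 rows of at least 10 CPM, 54 (0.626%) were. All 54 differed in the same direction between the KO libraries, 36 of them again by over 2-fold, while 6267 of the 8632 rows (72.6%) did so. The gaps were thus shared by the replicate numbers of both genotypes. The labels give no preparation batch or date, and whether the replicates were prepared apart was not tested.

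**Figure D5:**
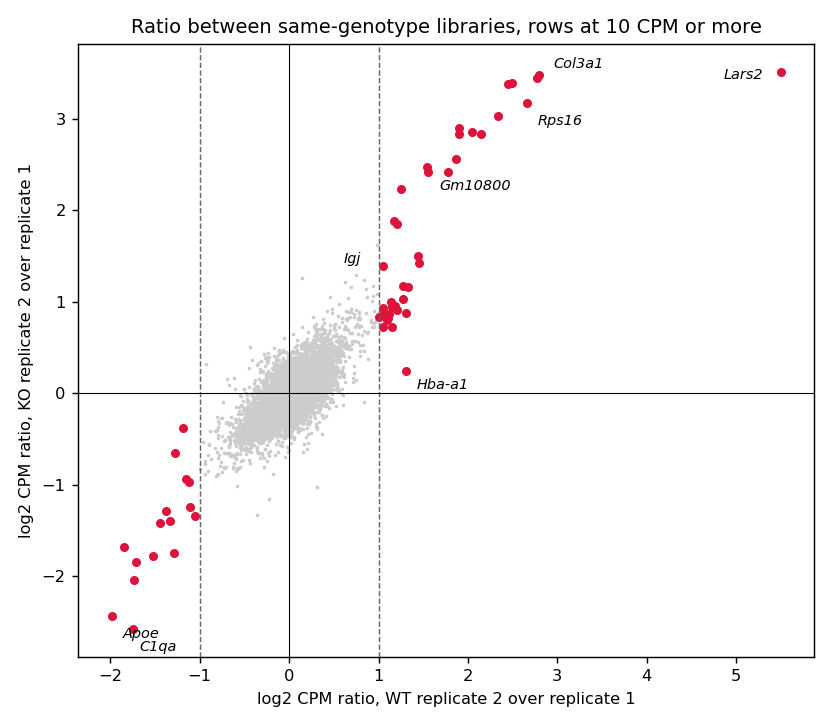
Log2 CPM ratio of replicate 2 over replicate 1 in WT (horizontal) and in KO (vertical) for the 8632 rows of at least 10 CPM in grey, with the 54 rows over 2-fold apart in WT as red points and dashed lines at 2-fold. All red points lie in the lower left or upper right quadrant, and Lars2 (5.50 in WT, 3.52 in KO) is farthest right.

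Most macrophage and several antigen presentation genes were higher in replicate 1. Apoe stood at 122 and 30.7 CPM (log2 ratio -1.98; -2.44 in KO), and Il1b at 20.7 and 5.74 CPM (-1.85; -1.68 in KO). The complement genes C1qa (22.0 and 6.52 CPM), C1qb (17.3 and 5.21 CPM) and C1qc (17.3 and 5.26 CPM) were likewise higher there, as was Mpeg1 (17.8 and 6.20 CPM). These are products of tissue macrophages. Of the 16 macrophage markers, 13 were expressed and 10 of these were over 2-fold apart. Replicate 1 was higher for 12 of the 16 and replicate 2 for 4 (Ly6c2, Lyz1, Mertk and Cd163). The median log2 ratio of the 16 in WT was -1.28, beside 0.03 over all expressed rows. The 16 markers summed to 294 and 112 CPM in WT, beside 216 and 75.2 CPM in KO. Csf1r stood at 36.0 and 16.6 CPM, Emr1 (F4/80) at 9.12 and 3.38 CPM, and Ly6c2, of inflammatory monocytes, at 2.87 and 5.90 CPM, over 2-fold the other way. Cd163 was within the limit of 3 counts. The class II genes H2-Aa (100.3 and 41.1 CPM), H2-Ab1 (72.7 and 28.0 CPM) and H2-Eb1 (67.9 and 32.6 CPM) and the invariant chain Cd74 (321 and 144 CPM) were also higher in replicate 1. Of the 16 dendritic cell markers, 8 were expressed, and their sum of 616 and 288 CPM was mostly that of these class II genes and Cd74. Dendritic cell markers outside this group were lower, with Xcr1 at 9.01 and 6.79 CPM, Clec9a at 0.112 and 0.160 CPM and Siglech at 0.484 and 0.0801 CPM. The part of other cells in the levels of Il1b, Nlrp3 and Clec7a was not tested.

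Most stromal and endothelial markers were higher in replicate 2, 15 of 16 and 12 of 12. The median log2 ratio was 1.68 for the stromal and 1.42 for the endothelial markers, beside 0.03 over all expressed rows. Col3a1, a fibroblast collagen, stood at 5.55 and 38.5 CPM (log2 ratio 2.80; 3.48 in KO). Pdgfra stood at 0.298 and 2.05 CPM and Col1a1 at 1.53 and 3.09 CPM. Of the 16 stromal markers 14 were expressed, though only 9 were in replicate 1 alone, and 10 of the 14 were over 2-fold apart. The summed stromal level, 1442 and 1580.2 CPM, was mostly that of Vim (1143 and 1238 CPM) and Thy1 (272 and 244 CPM), which T cells also express. Of the 12 endothelial markers 8 were expressed, and 2 in replicate 1 alone. Pecam1, which T cells can carry, stood at 107 and 115 CPM, while Cdh5 stood at 1.01 and 1.97 CPM, Kdr at 0.968 and 1.60 CPM and Tie1 at 0.596 and 0.913 CPM. Igj, the joining chain of secreted antibodies, stood at 122 and 254 CPM (1.05; 1.39 in KO), with the plasma cell marker Sdc1 at 8.71 and 7.52 CPM. Of the 8 plasma cell markers 7 were expressed, with a sum of 398 and 528 CPM that also holds Xbp1 (217 and 205 CPM). Of the expressed ones, only Igj was over 2-fold apart, and Xbp1 and Sdc1 were lower in replicate 2. The haemoglobin gene Hba-a1 stood at 6.18 and 15.3 CPM (1.31; 0.24 in KO). It is nearly identical to Hba-a2.

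Among rows of at least 10 CPM, the largest gap was that of Lars2, the mitochondrial leucyl-tRNA synthetase, with 9864 and 1038741 counts, or 367 and 16646 CPM. Its rank of 1 rested on replicate 2, since by the CPM of replicate 1 alone its rank was 465. Next at that level came Col3a1, the predicted gene Gm10715 and Rps16, a ribosomal protein gene at 17.2 and 109 CPM (2.66; 3.17 in KO). All 12 predicted genes at the start of chromosome 9 (3000922 to 3038316, mm9) were over 2-fold higher in replicate 2, with a sum of 258 and 921 CPM and log2 ratios from 1.18 to 2.77 in WT and from 1.88 to 3.45 in KO. The neighbours Gm10800 (999 and 2942 CPM) and Gm10801 (223 and 649.8 CPM) on chromosome 2 behaved alike. Reads of repeated sequence are hard to place on such rows.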

How the data were processed

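RNA from lamina propria Treg cells was taken up in Trizol, cleaned on a column, depleted of ribosomal RNA and read as 50 bp single-end reads over 2 lanes of an Illumina HiSeq instrument, per the labels' protocols. The values used were the gene counts that the authors deposited, whole numbers per row and library without normalization. The submitters' processing notes name TopHat2, DESeq and the build mm9, without versions. The counter, gene models and strand setting were not given in the sources used here. Reads shared by genes that overlap, or are near copies, may therefore be misassigned. The adjusted p-value column that the authors deposited in the same table was not used, and the chromatin accessibility samples were not used here.

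Counts of 26862922 (WT replicate 1) and 62402450 (WT replicate 2) over all 19191 rows were scaled to CPM, averaged and ranked (Python 3.11.15, pandas 2.3.3, numpy 2.4.6). No groups were compared, so no test was run. Floors are 3 counts and, like SDs of 2 libraries, do not cover preparation error. The table repeats a symbol in 41 rows, and the row of each symbol with the highest mean CPM is described. Counts of list members over 2-fold apart used the first row of each symbol instead. Of 934 listed symbols in 42 lists, 899 were found. The members and lists were chosen with earlier results of these data known. Named genes were the 25 highest rows, up to 10 highest members of each list, members at or under 3 counts, members needed to give a family in order (a few of these genes are not reported here), and the 8 rows farthest apart between the libraries in each direction among rows of at least 10 CPM. Genes named only as overlapping neighbours, the gene families and the chromosome 9 rows, where outside that rule, were chosen after their values were seen. The 2-fold rule at 10 CPM, written anew apart from the main calculation, was tried on simulated counts. These held counting error only, so preparation error was not tested. Alternatives were TMM scaling (edgeR 4.0.16 in R 4.3.3), a total without the 20 highest rows, pooled counts, a geometric mean, other limits, and each library alone.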

Additional observations from a re-analysis of the deposited data

How the results depend on the processing

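The number of rows over 3 counts in both libraries was 14437, and 15698 with at least 1 count in both, 16084 with over 3 counts in either, and 14563 to 15958 with 1 library alone. The number of rows of at least 1 CPM was 12267, and between 11321 and 13156 under the other limits, scalings and averages. The 100 highest rows held 19.7% of counts, and 14.1% of a total without the 20 highest rows, which leaves those rows out by construction. The 353 rows over 2-fold apart became 54 at a mean of at least 10 CPM, 1051 at over 1.5-fold and 86 at over 4-fold, as limits of that kind must, and 344 with TMM scaling. Of the 16 stromal markers, 9 (replicate 1 alone) to 14 were expressed. Of the 12 endothelial markers, 8 were expressed, but 4 with a geometric mean and from 2 (replicate 1 alone) upward with 1 library. Of the 11 glia and neuron markers 1 was expressed, or 2 with a total without the 20 highest rows, with pooled counts or with replicate 2 alone. For 274 genes taken from the 25 highest rows and the highest members of the function lists, 141 were among the 1000 highest rows, of which 139 to 141 stayed there under each alternative of scaling, averaging or library, and Lars2, Cxcl3 and Eif2s3y moved in level by over 1.5 times under at least 1. Ranking by coding length was not run because no protein lengths were used here. No paired analysis was possible because no groups were compared. Replicate 1 had fewer counts, so its levels near 0.112 CPM are less certain.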

Other observations

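Gene families, picked by symbol after their values were seen, differed in how many members reached 1 CPM, beside 63.9% of all rows. Of 458 olfactory receptor rows 7 did, and 191 had no count in either library. Of 170 vomeronasal receptor rows 1 did, and of 17 bitter taste receptors and 11 defensins none did. Among developmental families, 1 of 34 Hox genes was expressed, Hoxb4 at 4.69 and 3.03 CPM, and 2 of 15 Wnt genes, with Wnt16 highest at 3.69 and 2.02 CPM. Epithelial families were sparse, with 2 of 23 keratins and 2 of 21 claudins. The claudin sum came almost wholly from Cldn25, at 294 and 302 CPM. Of 64 cytochrome P450 genes 13 were expressed, led by Cyp4v3 at 17.3 and 16.8 CPM. At the other end, all 77 mitochondrial ribosomal protein genes, 57 translation initiation factors, 31 Mediator subunits, 16 lysine demethylases and 8 Gimap genes were expressed. The 82 cytosolic ribosomal protein rows, 80 of them expressed, held 2.23% and 2.27% of counts, and 13 heat shock 70 genes held 1.44% and 1.26%.

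Several of the highest rows carry only clone or predicted names. Gm10925 on chromosome 1 stood at 1333 and 829.5 CPM, Gm4070 on chromosome 7 at 705 and 747 CPM and 4932438A13Rik on chromosome 3 at 693 and 719 CPM. Gm9843 stood at 523 and 453 CPM, BC006779 at 433 and 493 CPM, AI848100 at 434 and 384 CPM and Gm9846 at 445 and 365 CPM. Their means ran from 405 CPM (Gm9846) to 1081 CPM (Gm10925), beside 565 CPM for Ahr and 878 CPM for Ikzf2. Short predicted genes can draw reads of a similar gene elsewhere, which was not tested. The Y-linked genes Ddx3y (155 and 137 CPM), Uty (38.7 and 30.2 CPM), Kdm5d (11.9 and 13.1 CPM) and Eif2s3y (17.4 and 35.9 CPM) were present in both libraries.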
